A study of Rattus norvegicus with 2 samples.

Results

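The keratin and cornified envelope genes of the rat thymus were followed on 2 Clariom S arrays, 1 of the cocaine group and 1 of the control group. The genes were those whose platform symbol starts with Krt and a digit, Lce or Sprr, together with Ivl, Flg and Loricrin. Of 23188 transcript clusters on the array, the units for which one summarized intensity is deposited, 45 met this rule, each with a different symbol. They were 39 keratins, 3 late cornified envelope genes (Lce1e, Lce1f and Lce1m), the small proline-rich genes Sprr1a and Sprr3, and Ivl. Flg and Loricrin had no named transcript cluster here and were not analysed here, and the same holds for the basal keratin Krt5 and the suprabasal keratin Krt10.

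The cocaine group had received 20 mg/kg cocaine i.v. daily for 7 days. The control is labelled as not stimulated, and the methods of the study give it saline. Both were male, and the methods describe Sprague-Dawley rats of 8 weeks, killed 1 day after the last dose. Thymus is the labelled source, although the extraction protocol mentions spleen. The thymocyte genes Rag1 and Dntt lay at percentile 99.9 of all transcript clusters on both arrays, at log2 levels of 18.87 and 18.30. The study had 4 rats per group, and the sources used here do not say whether an array holds RNA of 1 rat or a pool. The words control rat and cocaine rat stand below for the 2 arrays. Since each group is a single array, replicate error is unknown, nothing was tested, and every difference compares 2 arrays.

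Keratins are the intermediate filament proteins of epithelial cells, built as pairs of an acidic type I and a basic type II chain. In the thymus they mark the epithelial meshwork that supports the thymocytes. Krt8 and Krt18 are the keratins of simple epithelia and of cortical thymic epithelium, and Krt5 and Krt14 those of basal keratinocytes and of much of the medulla. Involucrin, the small proline-rich proteins and the late cornified envelope proteins are cross-linked beneath the membrane of dying keratinocytes, and some of them are also made where medullary epithelium cornifies in Hassall's corpuscles, best known from the human thymus. In RNA of whole thymus, fewer cells of a type and less RNA per cell cannot be told apart.

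The stretches of DNA just before the start of the genes with the largest differences, and of the paralogs of Lce1f, are shown so that the closest relatives can be compared. Each is the 150 bases before the start annotated by RefSeq on build GRCr8, read 5′ to 3′ on the strand of the gene. Capitals mark TATAAA or its variant ATAAAAG, motifs of the TATA box, and GGGCGG, the GC box bound by Sp1. The AP-1 motif TGANTCA was also searched, on both strands like the others, and TATAAA and ATAAAAG overlap where TATAAAAG occurs. The 3 late cornified envelope genes come first, at chr2:181002986-181003135, minus strand (Lce1f), chr2:181159043-181159192, minus strand (Lce1e) and chr2:181334301-181334450, minus strand (Lce1m).
Lce1f: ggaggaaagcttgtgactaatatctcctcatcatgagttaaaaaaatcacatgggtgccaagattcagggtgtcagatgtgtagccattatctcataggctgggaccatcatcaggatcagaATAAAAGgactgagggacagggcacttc
Lce1e: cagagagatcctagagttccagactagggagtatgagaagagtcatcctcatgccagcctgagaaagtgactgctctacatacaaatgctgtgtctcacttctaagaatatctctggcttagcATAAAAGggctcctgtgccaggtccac
Lce1m: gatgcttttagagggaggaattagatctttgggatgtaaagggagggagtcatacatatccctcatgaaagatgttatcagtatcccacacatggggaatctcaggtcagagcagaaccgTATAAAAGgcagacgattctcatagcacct
Between Lce1f and Lce1e, 93 of 175 aligned positions (53.1%) were identical, and 52.5% were so between Lce1f and Lce1m and between Lce1e and Lce1m. The aligned positions include gaps. Windows of unrelated genes were not aligned, so whether these shares exceed those of unrelated windows was not tested. All 3 held ATAAAAG, with its first base 28 bases before the start of Lce1f, 27 before that of Lce1e and 29 before that of Lce1m. Only Lce1m of the 3 had the full TATAAA.

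Next are the keratin with the largest positive difference, Krt20 (chr10:84890286-84890435, minus strand), the one with the largest negative difference, Krt72 (chr7:134799548-134799697, minus strand), and the brightest keratin row, Krt18 (chr7:135036018-135036167, plus strand).
Krt20: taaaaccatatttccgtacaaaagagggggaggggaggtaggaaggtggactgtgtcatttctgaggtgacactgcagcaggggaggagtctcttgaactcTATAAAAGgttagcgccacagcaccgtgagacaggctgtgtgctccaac
Krt72: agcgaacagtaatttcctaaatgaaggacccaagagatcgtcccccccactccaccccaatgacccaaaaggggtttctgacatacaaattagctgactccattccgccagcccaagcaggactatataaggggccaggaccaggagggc
Krt18: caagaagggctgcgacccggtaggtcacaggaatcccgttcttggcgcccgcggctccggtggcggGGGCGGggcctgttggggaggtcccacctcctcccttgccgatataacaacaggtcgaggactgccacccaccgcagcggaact
The window of Krt20 held TATAAA, and that of Krt18 held GGGCGG, while none of the 4 motifs was found in that of Krt72. The search takes these exact letters only, so a similar stretch such as tatataag in the window of Krt72 is not counted. Of the 45 genes, 34 had such a window, and TATAAA was found in 14 of them, ATAAAAG in 11, GGGCGG in 3 and TGANTCA in 1. Over all 33469 windows of the same length, TATAAA was found in 2678, ATAAAAG in 3.31%, GGGCGG in 8710 and TGANTCA in 3.69%. The motifs were chosen after the values had been seen, and a match is a description of letters only.

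Most of these genes lay low on the arrays. As a yardstick, the 95th percentile of 131 vomeronasal and olfactory receptor transcript clusters, genes of sensory neurons presumed to be silent in thymus, was 6.57 in the control and 6.48 in the cocaine array on the log2 scale. Of the 45 genes, 12 (26.7%) lay above this limit on both arrays, 4 on 1 array and 29 on neither. Over all transcript clusters 51.4% lay above it on both. Probes differ in how strongly they bind, so a level places a row on its own array and is no measure of one gene's transcript against that of another.

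**Figure D1:**
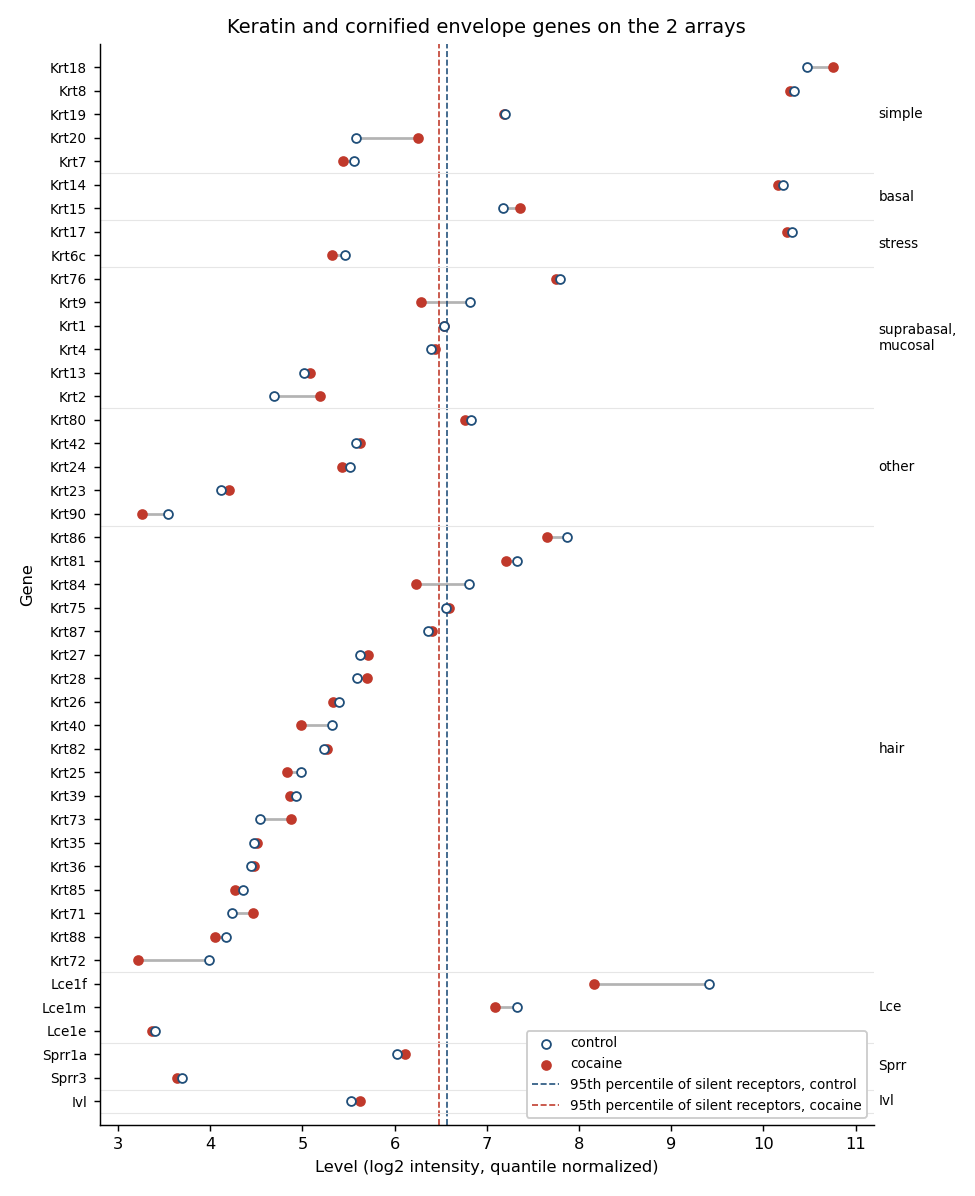
Log2 level of each of the 45 genes (y axis, by group) in the control rat (open circles) and the cocaine rat (filled circles), 1 array each, with dashed lines at the limit from the silent receptors. Krt8, Krt14, Krt17 and Krt18 sit between 10.16 and 10.75 on both arrays, and Lce1f has the longest line between its 2 points.

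The keratins of simple epithelia held the brightest row of all 45. Krt18, the type I simple keratin, had a log2 level of 10.47 in the control rat and 10.75 after cocaine, 1.22-fold higher. Krt8, its type II partner, was 10.33 in the control rat and 10.29 after cocaine. The 2 partners were thus within 1.5-fold, and the sign for Krt8 turned when the values were taken as deposited (0.02). RefSeq lists 6 pseudogenes of Krt18 and 1 of Krt8, so signal from such copies cannot be separated from that of the genes. Krt19, a type I keratin of ducts and of some thymic epithelium, was 7.20 and 7.18 and had the same deposited value on both arrays.

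Krt20, known from intestinal and urothelial epithelium, was the 1 keratin past 1.5-fold on the higher side, where 1.98% of all transcript clusters lay. Its log2 level was 5.59 in the control rat and 6.25 after cocaine, 1.59-fold higher, at percentiles 31.9 and 43.2. Both values were below the limit from the silent receptors. The middle 95% of differences among 1159 transcript clusters of like mean level ran from -0.63 to 0.57, and the difference of Krt20 was 0.67. Krt7, the remaining simple keratin, was 5.56 and 5.45. The 5 simple keratins had a median difference of -0.02, which turned positive as deposited (0.02) and with each array centred on its median (0.04).

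Among basal keratins, Krt14 had the same deposited value on both arrays and stood at 10.21 in the control rat and 10.16 after cocaine once normalized. Krt15, a keratin of basal and stem-like keratinocytes, was 7.17 in the control rat and 7.36 after cocaine. Krt17, which epidermis makes under stress and injury and which basal-like epithelium also contains, was 10.31 and 10.25, again from identical deposited values. Krt6c, of the stress-induced Krt6 family, was 5.47 and 5.32. The identifier of its transcript cluster names chromosome 1, while RefSeq places Krt6c on chromosome 7, so this row is less sure. The largest of these 4 differences was 1.14-fold.

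Of the 6 measured suprabasal and mucosal keratins, all lay within 1.5-fold. Krt9, the keratin of footpad skin, was 6.81 in the control rat and 6.29 after cocaine, 1.44-fold lower, which took it from above to below the limit from the silent receptors. Krt2, of the upper epidermis, was 4.70 and 5.19, 1.41-fold higher, low on both arrays. Krt1, an early marker of keratinocyte differentiation, was 6.54 on both arrays, above the limit on the cocaine array alone. The mucosal keratins Krt4 and Krt13 were 6.39 and 6.44, and 5.01 and 5.08. Krt76, a keratin of the oral mucosa, was 7.79 and 7.75, with equal deposited values.

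The 19 hair keratins, which build the hair shaft and its root sheath, ranged from 3.21 to 7.87. Of their differences, 9 were above 0 and 10 below. Krt72, an inner root sheath keratin, had a log2 level of 3.98 in the control rat and 3.21 after cocaine, 1.70-fold lower, and lay at percentiles 4.85 and 0.244. Of all transcript clusters, 2.29% were past 1.5-fold on the lower side. The middle 95% of differences at its mean level ran from -0.43 to 0.44. Of the 131 silent receptor rows, 5 were lower and 1 was higher by more than 1.5-fold, so differences of this kind also occurred among genes presumed silent. Krt84 was 6.81 and 6.23, 1.49-fold lower and just within the limit, and was past it as deposited (-0.60) and after lowess centring (-0.59). Krt40 was 5.32 in the control rat and 4.99 after cocaine, 1.26-fold lower. On the higher side, Krt73 was 4.54 and 4.88, 1.26-fold, and Krt71 was 4.24 and 4.46, 1.17-fold. Krt40, Krt73 and Krt71 were not above the silent receptor range on either array. The 2 hair keratins above the silent receptor range on both arrays were Krt86 (7.87 in the control rat and 7.66 after cocaine) and Krt81 (7.33 and 7.21). Krt75 was 6.55 and 6.59, above the range on the cocaine array alone. The 5 other keratins (Krt23, Krt24, Krt42, Krt80 and Krt90) differed by -0.28 to 0.09, and only Krt80, at 6.83 and 6.76, was above the range on both.

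Lce1f was the 1 gene of the 45 that differed by more than 2-fold, a size that 0.224% of all transcript clusters reached on the lower side. Late cornified envelope genes encode small proteins that are joined to the envelope at the last stage of keratinocyte differentiation. The log2 level of Lce1f was 9.41 in the control rat and 8.16 after cocaine, 2.38-fold lower. It ranked 5940 of 23188 on the control array and 8303 on the cocaine array, at percentiles 74.4 and 64.2. Of all transcript clusters, 17 had a lower difference, and none of the 1912 whose mean level was within 0.5 of that of Lce1f did. Of those 1912, 6 were lower by more than 2-fold. Among the 131 silent receptor rows, 1 was lower by more than 2-fold, with a difference of -1.53, further below 0 than Lce1f. The difference was -1.19 to -1.25 under the 4 scalings tried.

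The measured paralogs did not show a difference of that size. Lce1m was 7.33 in the control rat and 7.09 after cocaine, 1.18-fold lower, above the silent receptor range on both arrays. Lce1e was 3.40 and 3.36, among the dimmest rows of the array at percentiles 0.718 and 0.615, near the floor of the array. RefSeq lists 12 Lce genes on chromosome 2, of which only these 3 had a named row, and how far the probes of one paralog bind transcripts of another was not tested. The other envelope genes were dim. Ivl, which encodes involucrin, an early scaffold of the envelope, was 5.53 in the control rat and 5.62 after cocaine. Sprr1a was 6.03 and 6.12, and Sprr3 was 3.69 and 3.64.

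**Figure D2:**
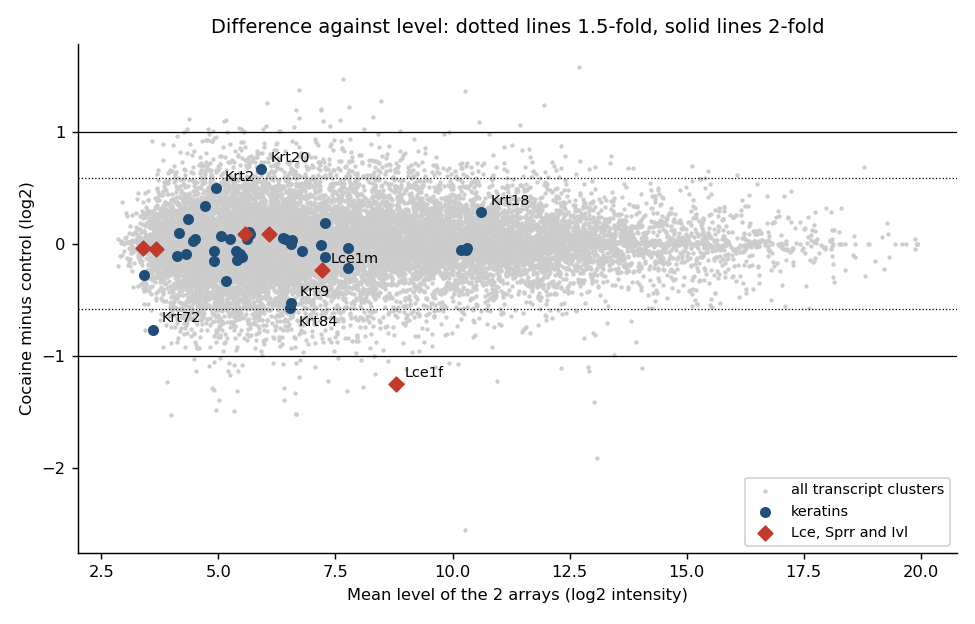
Cocaine minus control difference (y axis, log2) against mean level of the 2 arrays (x axis, log2 intensity) for all 23188 transcript clusters (grey), the 39 keratins (circles) and the 6 cornified envelope genes (diamonds), with lines at 1.5-fold (dotted) and 2-fold (solid). Lce1f, at -1.25, is the 1 marked gene beyond 2-fold, and Krt20 and Krt72 lie beyond 1.5-fold among dimmer rows.

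Counted over all 45 genes, Krt20 (2.22%) was past 1.5-fold on the higher side, beside the same 1.98% of all transcript clusters. Lce1f and Krt72 (4.44%) were past it on the lower side, beside 2.29% of all. Past 2-fold, 0 were higher and 1 was lower, where 0.151% and 0.224% of all transcript clusters were. Of the 12 genes above the silent receptor range, the 11 besides Lce1f had differences between -0.24 and 0.28. The median difference of the 45 genes was -0.04, and that of all transcript clusters was 0.01. After normalization 26 were below 0 and 19 above, though with each array centred on its median 21 were below and 24 above. As deposited 22 were below, 13 above and 10 at 0. Of the 45 genes, 10 (22.2%) held identical deposited values on both arrays, all of them keratins, and 27.2% of all transcript clusters did.

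By group, medians of the difference lay near 0. They were 0.06 for the 2 basal keratins, -0.10 for the 2 stress keratins, 0.02 for the suprabasal and mucosal keratins, -0.07 for the hair keratins and -0.07 for the other keratins. The 2 small proline-rich genes had a median of 0.02. Several of these signs were not stable. As deposited, the median was 0.00 for the suprabasal and mucosal keratins and -0.01 for the small proline-rich genes. That of the hair keratins was 0.03 at or above the 25th percentile of mean level. The late cornified envelope genes stood at -0.24, which is the value of Lce1m. Summed as deposited, the intensity of the 39 keratins was 7421 in the control rat and 7708 after cocaine, and that of the 6 envelope genes was 965 and 565. Lce1f carried most of the latter change, since the sum over its own group was 838 and 436.

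**Figure D3:**
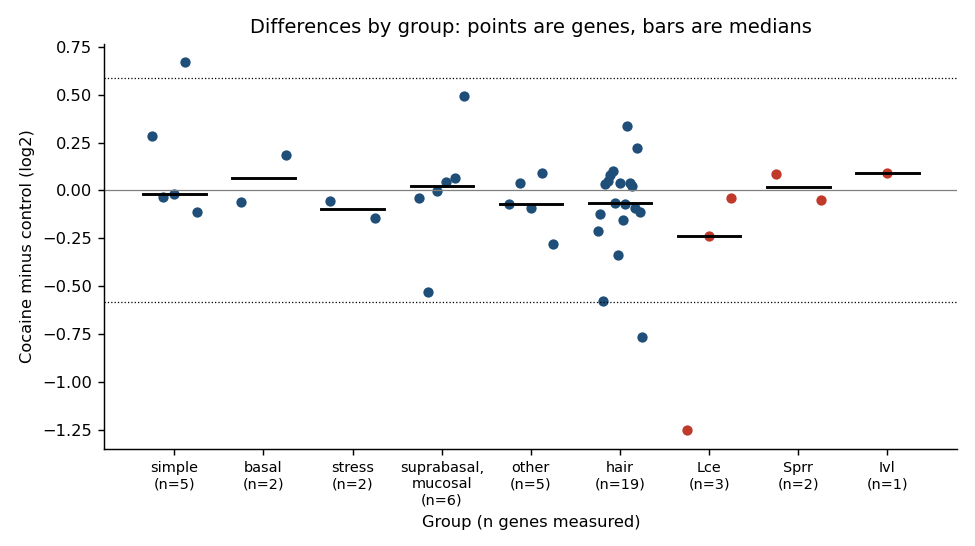
Cocaine minus control difference (y axis, log2) of each of the 45 genes, by group (x axis, with the number of genes), with bars at group medians and dotted lines at 1.5-fold. Medians lie between -0.24 and 0.09, and Lce1f, Krt72 and Krt20 are the 3 points past a dotted line.

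The partners of these proteins in the envelope and its junctions were taken from a list of 51 genes, of which 31 had a named row. Of these 31, Jup passed 1.5-fold upward and S100a11 downward, while 29 lay within that limit, with a median of -0.04. Of all transcript clusters, 1.98% passed that limit upward and 2.29% downward. Jup, which encodes plakoglobin of desmosomes and adherens junctions, was 10.56 in the control rat and 11.17 after cocaine, 1.53-fold higher. S100a11, a calcium-binding protein that can be cross-linked into the envelope, was 11.56 and 10.33, 2.34-fold lower. Klk7, a protease of skin shedding, was 6.13 and 5.55, just within the limit. S100a8 was 9.37 and 9.68, and the desmosomal cadherin gene Dsc2 was 6.86 and 6.61. The transglutaminase genes Tgm1 (6.16 and 6.08) and Tgm3 (6.24 and 5.85), whose enzymes make the cross-links, were not above the silent receptor range. Of 7 measured regulators of keratinocytes, all lay within 1.5-fold, among them Tp63, the master regulator of stratified epithelium, at 8.32 and 8.17.

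The late cornified envelope genes, Sprr genes, Ivl and S100a11 lie together in the epidermal differentiation complex of chromosome 2. From Pglyrp3 to S100a10, a span chosen after the values had been seen, GRCr8 lists 56 protein-coding genes, and 12 of them had a named row. Of these 12, Smcp, Lce1f and S100a11 were lower by more than 1.5-fold, beside 2.29% of all transcript clusters, and none was higher. Lce1f has Smcp and Kprp as its nearest named neighbours. Smcp, a sperm mitochondrial capsule gene, was 5.72 in the control rat and 5.11 after cocaine, and Kprp, a keratinocyte proline-rich gene, was 4.27 and 3.74, both of them dim. The differences of the 12 genes had a median of -0.29, and 10 were below 0, or 9 as deposited with 1 at 0. S100a10, next to S100a11, was 11.90 and 11.88 with equal deposited values. The span leaves out other S100 genes of the partner list, which did not share the lower values. S100a8 and S100a16 differed by 0.31 and 0.21, and S100a9 and S100a6 by -0.06 and -0.08. The counts and the median therefore hold for the chosen span only.

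**Figure D4:**
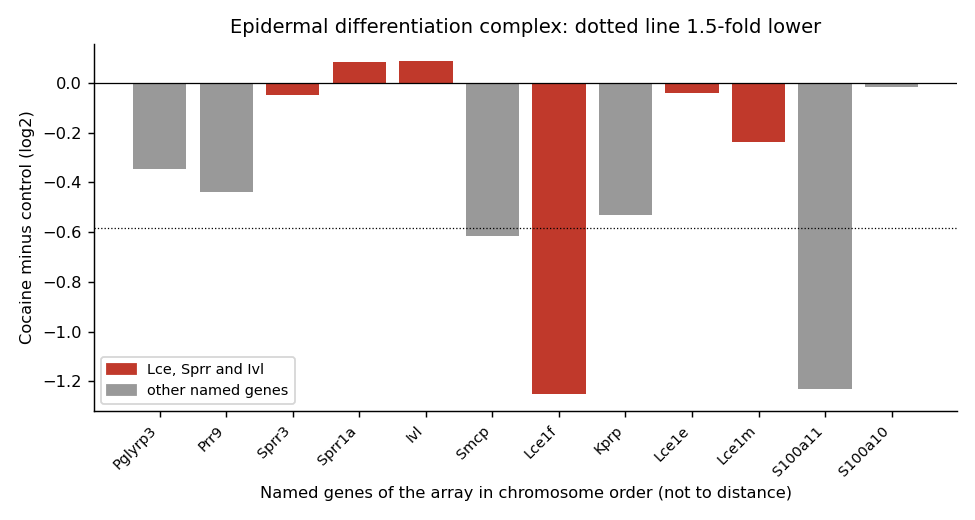
Cocaine minus control difference (y axis, log2) of the 12 named genes from Pglyrp3 to S100a10 in their order on chromosome 2 (x axis, not to distance), with Lce, Sprr and Ivl in red and a dotted line at 1.5-fold lower. The bars of Lce1f (-1.25) and S100a11 (-1.23) reach below those of Smcp (-0.61) and Kprp (-0.53), on either side of Lce1f, and of S100a10 (-0.02), next to S100a11.

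Thymic epithelium, the cell type that carries most keratins in thymus, was followed by markers outside the keratins. Of 26 listed markers 20 had a named row, all lay within 1.5-fold, and the median difference was 0.0006. Foxn1, the transcription factor of thymic epithelium, was 8.78 in the control rat and 9.15 after cocaine. The protease gene Prss16 of the cortex was 16.07 and 16.41, the Notch ligand gene Dll4 was 7.31 and 7.60, and the peptidase gene Enpep was 7.80 and 7.25. Epcam was 9.48 and 9.22, and Aire, of the medulla, was 6.36 and 6.29, not above the silent receptor range. Of the 20 differences, 10 were above 0 and 10 below. The summed intensity of the 20 markers was 121187 in the control rat and 145435 after cocaine, of which Prss16 alone made up 67844 and 86828, and without it the sums were 53343 and 58607. Of 12 listed thymocyte markers 10 had a named row, and all lay within 1.5-fold. Their median difference was -0.01, with 3 above 0 and 5 below. The largest were those of Rag2 (11.14 and 11.44), Arpp21 (16.28 and 15.99), Cd4 (16.68 and 16.40) and Cd8a (16.63 and 16.43).

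Markers of other tissues that a dissected thymus could carry were set beside them. Of 9 measured skin and hair follicle markers all lay within 1.5-fold, with a median difference of 0.10. Their summed intensity of 13782 in the control rat and 14671 after cocaine was nearly all that of Itga6, an integrin that many cell types make, and without it the sums were 697 and 734. Tyr of pigment cells (3.16 and 3.18) was not above the silent receptor range. Of 8 esophagus, airway and mesothelium markers, Scgb3a1, a secretoglobin of airways, was lower (7.23 and 6.44, 1.73-fold), where 2.29% of all transcript clusters were past 1.5-fold lower. Of the 8 differences, 4 were above 0, and their median was -0.01. The sums were 356 and 280, and 207 and 195 without Scgb3a1. All 8 muscle markers lay within 1.5-fold, 6 of them below 0, with a median of -0.04. Their sums were 588 and 634, and 403 and 361 without Tnnt3 (7.54 and 8.08). Of 7 adipocyte markers, Fabp4 and Adipoq were lower by more than 2-fold, as were 0.224% of all transcript clusters. The other 5 lay within 1.5-fold, 4 of the 7 differences were above 0, and the median was 0.01. The sums of 8597 and 4313 rested mainly on Fabp4, and without it they were 1210 and 814. The part of adipocyte or airway RNA in the lower Lce1f was not tested.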

How the data were processed

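Thymus RNA of the cocaine and the control group was hybridized to Clariom S arrays, 1 array per group. The authors used TAC software and deposited a linear intensity for each transcript cluster. Its version, background correction, normalization and build were not given in the sources used here. Median intensity was 107 (cocaine) and 108 (control). Of 24834 rows, 1646 controls were left out. Values were quantile normalized and taken to log2. The platform annotation names 15049 of the 23188 transcript clusters, each with 1 gene, and leaves 8139 unnamed here. All 45 genes matched RefSeq (GRCr8) by gene number, and the promoter windows are from RefSeq.

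A fold divides the brighter value by the dimmer. The members and lists were chosen with earlier results of these data known. Text genes were the simple, basal, stress and Lce groups, Ivl, those above the silent receptor range on either array, those past 1.5-fold, the 5 highest and 5 lowest differences, and from other lists those past 1.5-fold and up to 4 bright ones with the largest differences. Klk7, Tgm1, Tgm3, Epcam, Aire, Tyr, Smcp, Kprp, S100a6, S100a9, S100a10 and S100a16 were named after their values were seen. So were Krt2, Krt4, Krt13, Krt23, Krt24, Krt42, Krt90, Sprr1a and Sprr3 where the rule does not take them. Differences of like level came from 20 bins of mean level, and the lowess fraction was 0.3. The number of arrays limits precision. Only the quantile, median and lowess scalings were tested on simulated data. The tools were Python 3.11.15, numpy 2.4.6, pandas 2.3.3, statsmodels 0.14.6 and biopython 1.88.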

Additional observations from a re-analysis of the deposited data

How the results depend on the processing

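No paired analysis was possible because there was a single array per group, so leaving one out was not possible either. The counts of 1 higher and 2 lower genes past 1.5-fold became 1 and 3 as deposited and after lowess centring, with Krt84 as the added gene. Filters on level take away dim rows. At or above the 25th percentile of mean level the lower count was 1, and at or above the median, or above the silent receptor range, the counts were 0 and 1, Lce1f alone. The median of the late cornified envelope genes was -0.74 under each of these 3 filters, which leave out Lce1e, and -0.51 as a mean. The mean of the simple keratins was 0.16, in place of a median of -0.02. The count past 2-fold was 1 lower gene, Lce1f, under all scalings and filters tried. Above the silent receptor range lay 12 genes, 8 at its 99th percentile and 10 against 23 background control rows, which held the same value on both arrays. Under the scalings, 5 of the 45 differences at most took the opposite sign, none of them past 1.5-fold. As deposited, 2 took the opposite sign and 10 more were 0, so the sign of those 10 came from the normalization. Values for group medians under other settings moved by less than the local robust SD. The smallest groups hold 1 to 3 genes, so their medians rest on single rows. Differences of dim rows rest on signal like that of the silent receptors.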
